A study of Rattus norvegicus with 9 samples.

Results

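Endometrial RNA from rats given hydroxyurea, adrenaline and then LIG was set against endometrial RNA from rats given no drug, to describe what remained different from the drug-free state. The comparison used all 3 LER+LIG libraries and all 3 NER libraries, 6 of the 9 libraries of the series, and 14232 of its 22250 genes passed the count filter. In the LER+LIG group, female Sprague-Dawley rats aged 10 weeks were gavaged with hydroxyurea at 450 mg/kg daily over 10 days and were injected subcutaneously with adrenaline at 0.3 mg/kg daily on days 4 to 10. They were then mated and gavaged with LIG, which the series title names as ligustilide, at 40 mg/kg daily starting on gestation day 0.5. The LER group had the same hydroxyurea and adrenaline, was mated, and was gavaged with olive oil in place of LIG. The NER group had saline by both routes, was mated, and was gavaged with olive oil. No group with LIG and without the drugs was analysed here, so every LER+LIG library carries all 3 agents. The sources used here give no gestation day for the collection and do not say that each library came from its own rat, so p-values measure the spread between libraries, which may be technical.

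The endometrium lines the uterus and becomes receptive to an embryo for a short time under progesterone followed by oestrogen. In rodents, leukaemia inhibitory factor from uterine glands then acts on receptors containing gp130, which signal through STAT3, and Socs3 is a feedback inhibitor of that signal. Type IV collagen and laminins build the basement membrane beneath uterine epithelium and around vessels and muscle fibres, and the RT1 genes of the rat encode its major histocompatibility complex (MHC) proteins, which present peptides to T cells. Hydroxyurea blocks the enzyme that makes deoxynucleotides, adrenaline acts on adrenergic receptors, and ligustilide is a phthalide found in Angelica and Ligusticum plants.

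Promoter sequence is shown for genes from both directions of the comparison. Col4a2 is the collagen gene among the 10 lower genes with the smallest p. RT1-A1 and RT1-CE10, both class I genes, are those among the 10 higher ones with an RT1 symbol. Each run holds the 250 bases before the transcription start, read 5′ to 3′ on the gene's own strand, from RefSeq on assembly GRCr8. Col4a2 shares its promoter with Col4a1, which is transcribed the other way from a start 77 bases off, and the capitals mark the 76 bases between those starts. In RT1-A1 and RT1-CE10 the capitals mark the longest run of bases common to both windows, 37 bases.
Col4a2, chr16:84885521-84885770, minus strand: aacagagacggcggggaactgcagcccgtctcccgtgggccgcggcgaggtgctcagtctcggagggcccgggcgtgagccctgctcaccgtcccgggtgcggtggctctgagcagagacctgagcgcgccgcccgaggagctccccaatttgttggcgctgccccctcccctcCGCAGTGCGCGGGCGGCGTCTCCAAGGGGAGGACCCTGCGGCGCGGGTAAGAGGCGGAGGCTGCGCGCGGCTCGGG
RT1-A1, chr20:4906959-4907208, plus strand: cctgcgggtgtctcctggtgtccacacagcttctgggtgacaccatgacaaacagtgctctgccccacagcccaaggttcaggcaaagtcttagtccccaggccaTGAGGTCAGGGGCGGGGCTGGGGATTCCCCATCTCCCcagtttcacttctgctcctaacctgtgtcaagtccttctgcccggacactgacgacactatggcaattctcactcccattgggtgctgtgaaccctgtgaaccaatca
RT1-CE10, chr20:3384980-3385229, minus strand: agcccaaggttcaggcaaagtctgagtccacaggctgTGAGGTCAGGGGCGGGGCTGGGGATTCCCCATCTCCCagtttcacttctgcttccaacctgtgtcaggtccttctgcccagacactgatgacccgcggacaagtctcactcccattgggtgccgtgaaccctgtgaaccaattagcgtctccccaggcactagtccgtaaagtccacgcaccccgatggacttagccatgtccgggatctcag
The Col4a2 window was 74.4% G and C, against a median of 60.0% over the promoters of 10708 tested genes.

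Total counts were 13241537 to 15354085 per library. The libraries did not group by treatment: the first principal component, 44.4% of the variance of log2 CPM (counts scaled to library size), set LER+LIG 2, LER+LIG 3 and NER 3 at 71.3, 74.0 and 84.5, and all other libraries between -68.1 and -28.7. Defining markers of epithelium, stroma, smooth muscle, endothelium (Cdh5 and Kdr) and leukocytes were detected in every library, and Pecam1 was not analysed here. The epithelial keratin Krt8 stood at 67.9, 583 and 611 CPM in LER+LIG 1 to 3, against 75.5, 87.5 and 1259 CPM in NER 1 to 3. The difference between the mean levels of oestrogen-responsive and progesterone-responsive uterine genes followed the same division, at -0.95, 1.61 and 1.48 on the log2 scale in LER+LIG libraries and -0.58, -0.91 and 1.85 in NER libraries. LER+LIG 1 stood apart in another way, since among tested genes split into 4 bins by length, its shortest bin lay 0.44 above and its longest bin 0.37 below their 9-library means in median log2 CPM. The other libraries lay between -0.12 and 0.09 for the shortest bin and between -0.06 and 0.17 for the longest.

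**Figure D1:**
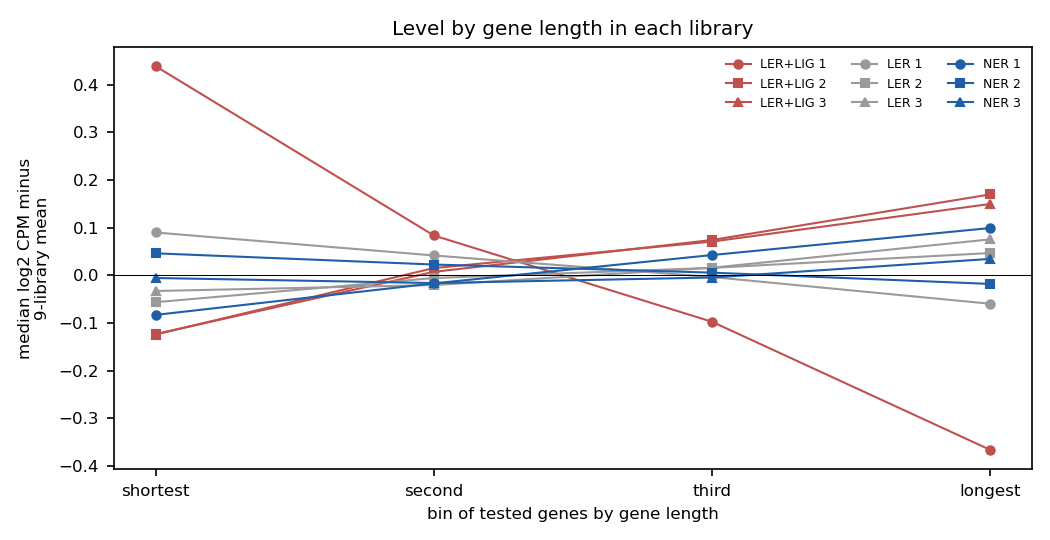
Median log2 CPM minus the 9-library mean (vertical axis) for the tested genes split into 4 bins by gene length (horizontal axis), with 1 line per library of LER+LIG, LER and NER. LER+LIG 1 runs from 0.44 in the shortest bin to -0.37 in the longest, and the other 8 libraries stay between -0.12 and 0.17.

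Compared with NER, LER+LIG endometrium had more RNA of the class I genes RT1-A1 and RT1-CE10 and of Kap, Scgb1a1 and Decr1. It had less RNA of Socs3, Col4a2 and Ccnd2. For each of these genes all LER+LIG libraries lay on 1 side of all NER libraries, which was a condition of their choice. None of these differences passed edgeR's test, and DESeq2 called all 8. In edgeR's quasi-likelihood fit, Benjamini-Hochberg adjusted, 0 of 14232 genes, 0%, passed an adjusted p under 0.05 in either direction, and the smallest adjusted p was 0.384. At an unadjusted p under 0.05, 391 genes (2.75%) were higher and 384 (2.7%) lower in LER+LIG, together 775 (5.45%), where 711.6 would be expected by chance. The DESeq2 Wald test, the other tool run, called 23 genes (0.162%), of which 9 (0.0632%) were higher and 14 (0.0984%) lower in LER+LIG. The 3 LER+LIG libraries lay wholly above the 3 NER libraries for 594 genes (4.17%) and wholly below them for 583 (4.1%). Together these were 1177 genes (8.27%). Such separation of 3 libraries from 3 also arises by chance. Its expected number was not computed, so these shares are not read as an excess over chance. A lack of overlap in a gene does not by itself mark a difference. Over all tested genes the median log2 fold change, LER+LIG minus NER, was 0.04, with quartiles of -0.27 and 0.31. Of the genes below with the smallest p and groups that did not overlap, 10 in each direction, 18 were among the DESeq2 calls. None of these 20 was called by edgeR, whose adjusted p was 0.384 for RT1-A1 and 0.868 for the other 19. LER values are given beside the others, and the fold changes of LER minus NER and of LER+LIG minus LER share libraries with the comparison described.

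**Figure D2:**
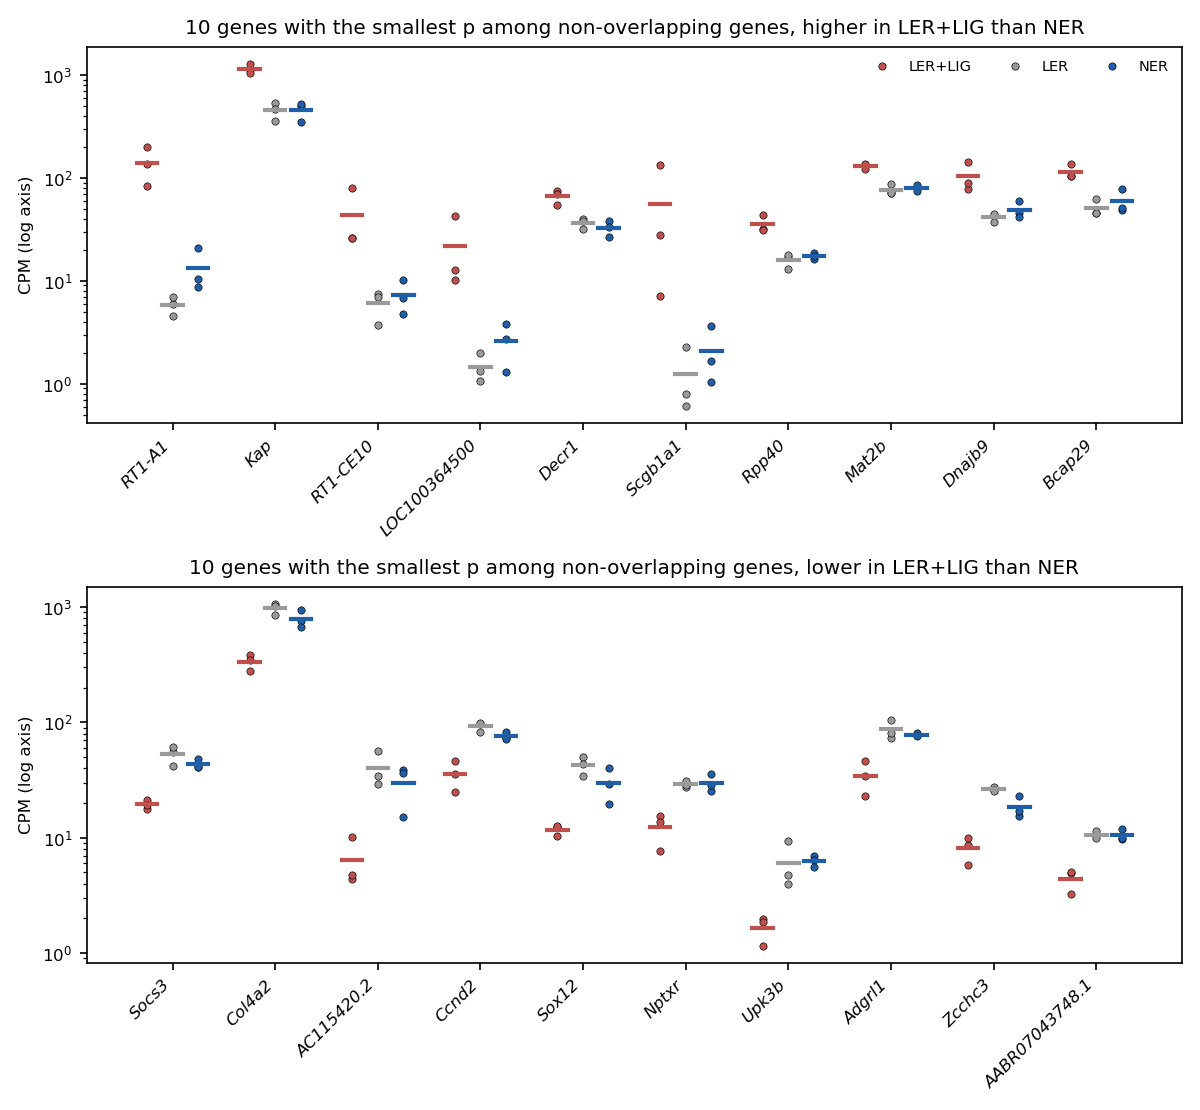
CPM on a log axis in each library of LER+LIG, LER and NER for the 10 genes higher and the 10 genes lower in LER+LIG with the smallest p and groups that did not overlap. Points are libraries and bars are group means: RT1-A1 stands at 83.7 to 200.1 CPM in LER+LIG and 8.64 to 21.0 CPM in NER, and Col4a2 at 277 to 384 CPM in LER+LIG and 672 to 937 CPM in NER.

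The smallest p of all tested genes belonged to an MHC class I gene. RT1-A1, a class I heavy chain gene, had 83.7, 200.1 and 137 CPM in the LER+LIG libraries, 5.98, 6.90 and 4.55 CPM in LER and 8.64, 10.5 and 21.0 CPM in NER. Every LER+LIG library was above every other library, the lowest of them far above NER 3, the highest of the NER libraries. The log2 fold change was 3.39 ± 0.44 (SE, n = 3 each), with an adjusted p of 0.384 by edgeR's quasi-likelihood test and 3.30e-10 by DESeq2. It lay between 3.02 and 3.85 when any 1 of the 6 libraries was left out. With the oestrogen and progesterone difference as a covariate in the edgeR fit it was 3.17 with an adjusted p of 0.00414, and RT1-A1 was then the only gene called. That covariate was computed from the RNA of these same libraries, and its oestrogen-responsive genes include Kap and Ccnd1. It is therefore not an independent measure of hormone state. LER minus NER was -1.20 and LER+LIG minus LER 4.59, so the LER libraries were on the other side of NER from LER+LIG.

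RT1-CE10, another class I gene, had 26.3, 78.9 and 26.3 CPM in LER+LIG libraries, 7.47, 3.75 and 6.90 CPM in LER and 4.77, 6.78 and 10.3 CPM in NER. LER+LIG 2 was the highest, LER+LIG 1 and 3 were level with each other, and all 3 exceeded every NER library. Its log2 fold change was 2.59 ± 0.53 (SE, n = 3 each; DESeq2 adjusted p 0.00299), and 1.83 without LER+LIG 2. LOC100364500, listed without a name, had 10.2, 42.7 and 12.7 CPM in LER+LIG and 1.31, 2.72 and 3.77 CPM in NER. Its groups did not overlap either, and its log2 fold change was 3.07 ± 0.65 (SE, n = 3 each), or 2.11 without LER+LIG 2.

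Of 31 genes with an RT1 symbol in the table, 23 passed the filter and 15 of those were higher in LER+LIG. RT1-A2, a class I gene, had 176, 262 and 135 CPM in LER+LIG and 34.7, 53.9 and 96.4 CPM in NER, a log2 fold change of 1.63 ± 0.46 (SE, n = 3 each) with every LER+LIG library above every NER library. RT1-CE3 (2.14) and RT1-CE4 (0.99) also had groups that did not overlap. RT1-Ba, which encodes a class II alpha chain, had 101, 420.4 and 118 CPM in LER+LIG and 18.2, 25.9 and 89.4 CPM in NER. Its lowest LER+LIG library was just above NER 3, and its log2 fold change of 2.26 ± 0.74 became 1.27 without LER+LIG 2 and 3.25 without NER 3. RT1-Db1, a class II beta chain, overlapped between the groups at 106, 344 and 105 CPM in LER+LIG and 21.4, 37.7 and 111 CPM in NER. The class II genes RT1-Bb and RT1-Da had log2 fold changes of 0.37 and 0.17, and both were negative without LER+LIG 2, at -0.61 and -0.34. RT1 genes are close copies of each other, so reads may have been split between them by the authors' counting, and the value of any single RT1 gene is uncertain.

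Genes of peptide loading onto class I proteins differed in both directions. B2m, the light chain shared by class I proteins, had a log2 fold change of 0.64, the immunoproteasome subunit Psmb8 0.51 and the peptide transporter Tap1 -0.29, and all 3 overlapped between the groups. Tap2, the partner of Tap1, had 0.249, 0.340 and 0.387 CPM in LER+LIG and 0.967, 1.14 and 1.38 CPM in NER, the LER+LIG libraries all below the NER libraries at this low level (log2 fold change -1.80 ± 0.66, SE, n = 3 each). Over the list of MHC class I and peptide loading genes, 11 of 15 tested members were higher, with a median of 0.15 against 0.04 over all genes, which was -0.11 without NER 1 and 0.58 without NER 3. Leukocyte markers varied within the groups alongside these genes. The summed level of the 20 tested macrophage and dendritic cell markers was 1661, 2557 and 3251 CPM in LER+LIG and 1082, 955 and 4640.1 CPM in NER, and none of these markers was at 0 throughout a group. In the same order, RT1-A1 had 83.7, 200.1 and 137 CPM in LER+LIG and 8.64, 10.5 and 21.0 CPM in NER. The part of leukocyte content in the RT1 results was not tested.

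**Figure D3:**
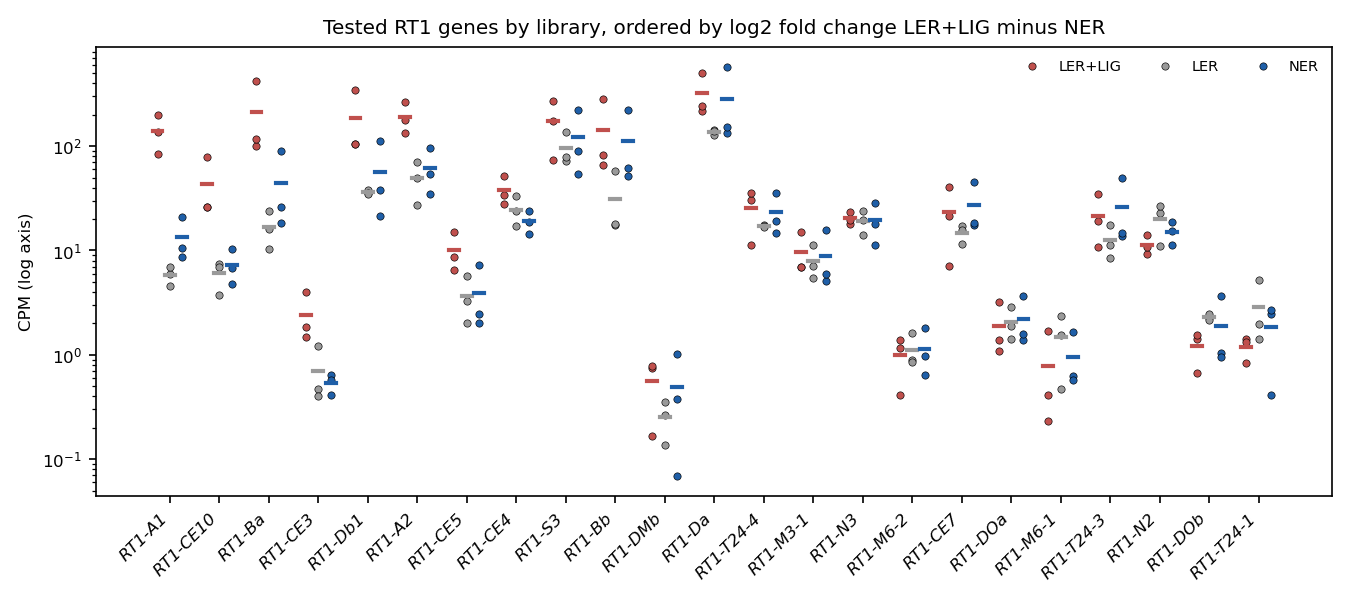
CPM on a log axis in each library of LER+LIG, LER and NER for the 23 tested RT1 genes, ordered by log2 fold change. Points are libraries and bars are group means: RT1-A1, at the left, has no overlap between LER+LIG and NER, and genes from RT1-S3 rightwards overlap.

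Interferon-stimulated genes and neutrophil markers were mostly higher in LER+LIG, with wide spread. Of 29 tested interferon-stimulated genes 26 were higher, with a median log2 fold change of 0.45 that ranged from 0.14 without NER 1 to 0.89 without NER 3. LER+LIG lay wholly above NER for 1 of the 29, Ifi44, a share no larger than the 4.17% of all tested genes. Ifi44 had 70.1, 85.9 and 70.4 CPM in LER+LIG and 35.1, 40.6 and 47.4 CPM in NER, a log2 fold change of 0.88 ± 0.26 (SE, n = 3 each; unadjusted p 0.00846). Ifit2 overlapped, at 38.5, 82.8 and 95.1 CPM in LER+LIG and 37.0, 39.1 and 48.8 CPM in NER. All 10 tested neutrophil markers were higher, with a median of 0.87 that was 0.46 without LER+LIG 2 and 1.39 without NER 3. Their summed level overlapped between the groups, at 139.7, 674 and 261 CPM in LER+LIG and 60.0, 88.3 and 269 CPM in NER. NER 3 was above LER+LIG 1 and 3. Lcn2, 1 of the 10, weighed heavily in that sum, at 35.7, 490 and 108 CPM in LER+LIG and 13.3, 22.9 and 136 CPM in NER. Cxcr2, the chemokine receptor that guides neutrophils, had 3.66, 6.19 and 3.40 CPM in LER+LIG libraries, 1.49, 1.07 and 0.569 CPM in LER and 0.691, 0.951 and 1.52 CPM in NER, and its groups did not overlap (log2 fold change 2.06 ± 0.55, SE, n = 3 each). The neutrophil granule protein gene S100a8 had 18.9, 22.8 and 4.95 CPM in LER+LIG and 5.53, 10.5 and 1.81 CPM in NER, with LER+LIG 3 below NER 1 and NER 2. In bulk tissue, more cells of a type and more RNA per cell cannot be told apart.

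Ms4a7, a macrophage membrane protein gene, had 15.7, 23.8 and 15.2 CPM in LER+LIG and 6.15, 3.99 and 9.56 CPM in NER, a log2 fold change of 1.47 ± 0.41 (SE, n = 3 each) with no overlap. Over the macrophage and dendritic cell list 17 of 20 were higher, the median of 0.29 becoming 1.09 without NER 3 and 0.012 without NER 2. Of lymphocyte markers, 4 of 15 for T cells were higher, with a median of -0.17 that was 0.46 without NER 3, and 6 of 13 for natural killer cells, with a median of -0.14 that was 0.29 without NER 3. Among NF-kB targets, the neutrophil attractant Cxcl6 had 3.16, 364 and 12.8 CPM in LER+LIG and 1.87, 1.84 and 13.7 CPM in NER. A single library, LER+LIG 2, carried that difference, and the log2 fold change of 4.45 was 0.44 without it. Birc3, an inhibitor of apoptosis, behaved likewise, at 2.28 with all libraries and 0.25 without LER+LIG 2.

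Kap, the gene of an androgen-regulated kidney protein first described in mouse, was the most abundant of the 20 genes with the smallest p, at a mean of 1559 FPKM (a scale per gene length) in LER+LIG and 657 FPKM in NER, beside 14.5 and 1.40 FPKM for RT1-A1. Kap was also a member of the list of oestrogen-responsive uterine genes used here. It had 1109, 1273 and 1048 CPM in LER+LIG libraries, 539, 463 and 358 CPM in LER and 503, 526 and 352 CPM in NER. The 3 LER+LIG libraries were all close to or above 2 times the highest NER library, and the LER and NER libraries shared the same range. The log2 fold change was 1.31 ± 0.25 (SE, n = 3 each), with an adjusted p of 0.868 by edgeR's quasi-likelihood test and 0.00112 by DESeq2, and stayed between 1.13 and 1.42 when any 1 library was left out. Kap is short, LER+LIG 1 was the library with raised short genes, and the fold change without LER+LIG 1 was 1.32. The part of gene length in the Kap result was not tested.

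Scgb1a1, the gene of uteroglobin, a secreted protein of mucosal epithelium, had 7.14, 134 and 27.6 CPM in LER+LIG libraries, 0.611, 0.803 and 2.28 CPM in LER and 1.04, 1.65 and 3.62 CPM in NER. All LER+LIG libraries were above all NER libraries, but LER+LIG 2 held most of the signal, and the log2 fold change of 4.74 ± 1.08 (SE, n = 3 each; DESeq2 adjusted p 6.58e-04) was 3.02 without it. The uterine epithelium list did not separate the groups: its summed level was 832, 3425 and 2987 CPM in LER+LIG and 811, 1127 and 4491 CPM in NER, 8 of 14 markers were higher, and the median of 0.11 was 1.70 without NER 3 and -0.36 without LER+LIG 2. None of those markers was at 0 throughout a group. The part of epithelial content in the Scgb1a1 result was not tested.

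Decr1, Mat2b, Rpp40, Dnajb9 and Bcap29 completed the 10 higher genes with the smallest p. Decr1, a mitochondrial reductase needed to break down unsaturated fatty acids, had 75.3, 70.0 and 54.4 CPM in LER+LIG libraries, 40.3, 31.6 and 38.0 CPM in LER and 37.9, 33.3 and 26.9 CPM in NER, a log2 fold change of 1.03 ± 0.22 (SE, n = 3 each; DESeq2 adjusted p 0.0352). Mat2b, the regulatory subunit of the enzyme that makes S-adenosylmethionine, had 133, 136 and 123 CPM in LER+LIG and 79.4, 74.8 and 84.9 CPM in NER. Rpp40, a protein subunit of ribonuclease P, had 43.7, 31.9 and 31.1 CPM in LER+LIG and 18.7, 16.4 and 17.3 CPM in NER. For these 3 genes the LER libraries lay near NER and below every LER+LIG library, and DESeq2 called all 3. Dnajb9, a chaperone partner inside the endoplasmic reticulum, had 144, 77.9 and 89.5 CPM in LER+LIG and 59.4, 45.4 and 41.4 CPM in NER. Bcap29, a membrane protein of the same organelle, had 103, 135 and 104 CPM in LER+LIG and 77.0, 48.7 and 51.3 CPM in NER. Neither was called by DESeq2 (adjusted p 0.142 and 0.171).

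Other genes of the endoplasmic reticulum were examined because of those values, in a list chosen after they were seen. Of 20 tested members 14 were higher, with a median of 0.23. LER+LIG lay wholly above NER for 2 of the 20, Dnajb9 and Herpud1, beside 4.17% of all tested genes. Dnajb9 prompted the list, so its lack of overlap lends the list no support. The median was -0.30 without LER+LIG 1 and 0.50 without LER+LIG 2. Herpud1, which helps remove misfolded proteins, had 147, 152 and 107 CPM in LER+LIG and 91.3, 78.8 and 81.7 CPM in NER (log2 fold change 0.69 ± 0.21, SE, n = 3 each). Ddit3, a transcription factor of the stress response, had 23.6, 23.1 and 9.12 CPM in LER+LIG and 7.74, 11.6 and 9.34 CPM in NER, with LER+LIG 3 inside the NER range. Ccni, which encodes cyclin I, was also called by DESeq2 (adjusted p 0.0256), at 793, 820.3 and 752 CPM in LER+LIG and 497, 437 and 516 CPM in NER.

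Antioxidant genes driven by NRF2 leaned the same way: 18 of 22 tested members were higher, with a median of 0.20. Prdx1, a peroxidase, had 742, 426 and 410.3 CPM in LER+LIG and 347, 273 and 355 CPM in NER, and the groups did not overlap (log2 fold change 0.69 ± 0.27, SE, n = 3 each). Hmox1, which degrades haem, ranged widely at 63.4, 149 and 24.0 CPM in LER+LIG and 31.2, 21.8 and 32.3 CPM in NER, with LER+LIG 3 below NER 1 and NER 3. Gclm, a subunit of the enzyme that limits glutathione synthesis, had 49.8, 156 and 118 CPM in LER+LIG and 44.6, 39.0 and 70.2 CPM in NER. Of the 12 mitochondrially encoded genes tested, 10 were higher, with a median of 0.42, and mitochondrial transcripts took 4.06%, 5.46% and 4.51% of the counts in LER+LIG libraries against 5.04%, 3.27% and 2.68% in NER libraries.

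Genes of the basement membrane were mostly lower. Col4a2, a chain of type IV collagen, had 384, 277 and 345 CPM in LER+LIG libraries, 1067, 1031 and 855 CPM in LER and 757, 937 and 672 CPM in NER. All LER+LIG libraries were below all NER libraries, and the LER libraries were level with or above NER. The log2 fold change was -1.23 ± 0.24 (SE, n = 3 each), with an adjusted p of 0.868 by edgeR's quasi-likelihood test and 5.26e-04 by DESeq2, and it stayed between -1.36 and -1.09 when any 1 library was left out. LER minus NER was 0.32 and LER+LIG minus LER -1.55.

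Col4a1, whose product pairs with that of Col4a2 in the same collagen and whose promoter is shared with it as printed above, had 1653, 633 and 831 CPM in LER+LIG libraries, 2181, 2178 and 1764 CPM in LER and 1669, 2105 and 1404 CPM in NER. LER+LIG 1 was inside the NER range and the other LER+LIG libraries were below it, so that the log2 fold change of -0.73 ± 0.36 (SE, n = 3 each; unadjusted p 0.0741) was -1.25 without LER+LIG 1. Lamc1, the laminin gamma chain of most basement membranes, had 414, 345 and 509 CPM in LER+LIG and 1073, 1069 and 566 CPM in NER, a log2 fold change of -1.09 ± 0.29 (SE, n = 3 each; unadjusted p 0.00423) with no overlap. Lama4, a laminin chain of vessels, had 158, 124 and 146 CPM in LER+LIG and 263, 209.7 and 169.7 CPM in NER and did not overlap. Nid1, which links laminin to collagen, had a log2 fold change of -0.59 and overlapped. In a basement membrane list chosen after the Col4a2 value was seen, 15 of 20 tested members were lower, with a median of -0.54. That list holds Col4a2 itself.

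Contractile genes were lower as well. All 14 tested smooth muscle genes had negative fold changes, with a median of -0.48. LER+LIG lay wholly below NER for 3 of them, Cnn1, Synpo2 and Lmod1, beside 4.1% of all tested genes. Cnn1, which encodes calponin, had 1103, 353 and 652 CPM in LER+LIG and 1348, 1387 and 1692 CPM in NER, a log2 fold change of -1.07 ± 0.39 (SE, n = 3 each). The defining markers Acta2 and Myh11, for smooth muscle actin and myosin, had fold changes of -0.34 and -0.31, and both overlapped between the groups. The summed level of the list was 22089, 11947 and 13522 CPM in LER+LIG libraries, 18340.2, 24745 and 22579.5 CPM in LER and 20898, 20517 and 25658 CPM in NER, and none of its members was at 0 throughout a group. LER+LIG 1 had a sum inside the NER range and 384 CPM of Col4a2. The part of muscle content in the basement membrane results, Col4a2 included, was not tested. Of 12 endothelial markers 10 were lower with a median of -0.24, and of 20 vascular growth genes 16 were lower with a median of -0.32. Eng, an endothelial co-receptor, had 248, 205 and 209.9 CPM in LER+LIG and 288, 309 and 249.7 CPM in NER, without overlap.

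**Figure D4:**
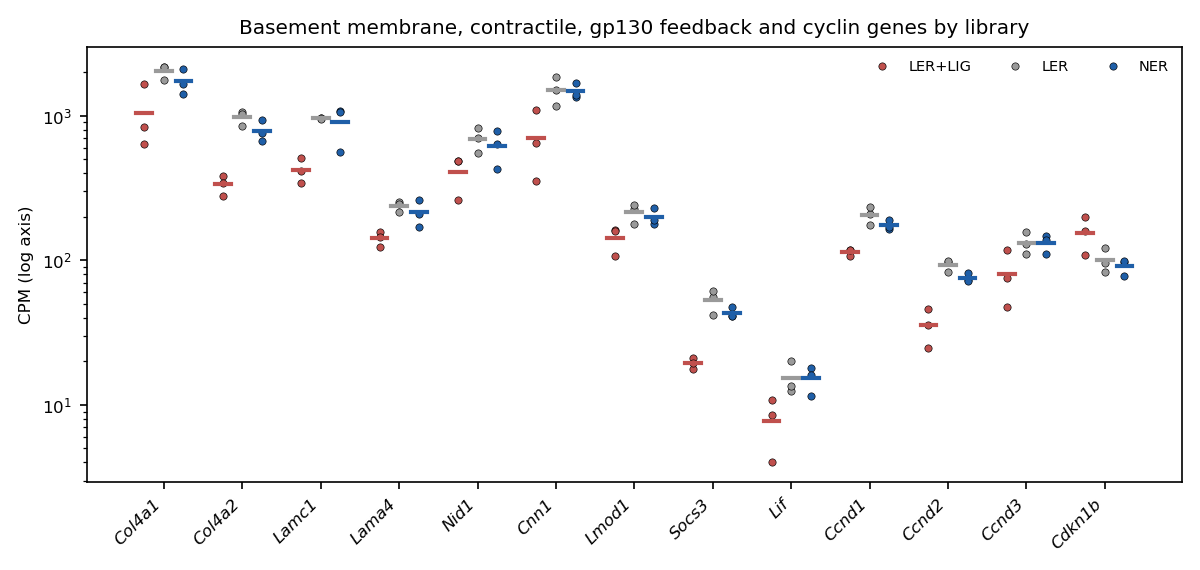
CPM on a log axis in each library of LER+LIG, LER and NER for genes of the basement membrane, contractile, gp130 and cyclin groups. Points are libraries and bars are group means: Col4a2, Lamc1, Lama4, Cnn1, Lmod1, Socs3, Lif, Ccnd1 and Ccnd2 lie wholly lower in LER+LIG than in NER, Cdkn1b wholly higher, and Col4a1, Nid1 and Ccnd3 overlap.

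The feedback inhibitor Socs3 had the smallest p of the lower genes. Its levels were 21.3, 17.8 and 19.4 CPM in LER+LIG libraries, 55.5, 61.1 and 42.0 CPM in LER and 41.1, 47.9 and 41.2 CPM in NER. The LER+LIG libraries were close together and all below every NER and LER library. The log2 fold change was -1.16 ± 0.21 (SE, n = 3 each), with an adjusted p of 0.868 by edgeR's quasi-likelihood test and 0.00112 by DESeq2, and ranged from -1.24 to -1.08 when any 1 library was left out. LER minus NER was 0.28 and LER+LIG minus LER -1.44.

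Lif, the ligand that acts through gp130 at attachment, had 8.56, 4.02 and 10.8 CPM in LER+LIG libraries, 20.2, 12.5 and 13.6 CPM in LER and 18.1, 11.5 and 16.1 CPM in NER. Every LER+LIG library was below every NER library, by a narrow margin between LER+LIG 3 and NER 2, and the log2 fold change was -0.97 ± 0.40 (SE, n = 3 each; unadjusted p 0.0388). Socs1, a related inhibitor, had 14.0, 6.74 and 19.6 CPM in LER+LIG and 13.3, 28.4 and 41.2 CPM in NER and overlapped. Il6st, which encodes gp130, had 111, 467 and 393 CPM in LER+LIG and 766, 478 and 373 CPM in NER, with LER+LIG 1 the lowest of all. The receptor subunit Lifr had a fold change of -0.34 and Stat3 one of -0.18. In a list of gp130 ligands, receptors, kinases and inhibitors chosen after the Socs3 value was seen, 14 of 19 tested members were lower, with a median of -0.22. That list holds Socs3 itself.

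Ccnd2, which encodes cyclin D2, a driver of entry into the cell cycle, had 24.8, 46.0 and 35.7 CPM in LER+LIG libraries, 97.4, 98.4 and 82.9 CPM in LER and 81.8, 73.3 and 72.4 CPM in NER. The groups did not overlap, and the log2 fold change was -1.09 ± 0.24 (SE, n = 3 each; DESeq2 adjusted p 0.0252). Ccnd1 had 117, 107 and 118 CPM in LER+LIG and 164, 189 and 171 CPM in NER, also without overlap, and Ccnd3 a fold change of -0.72 with overlap. Cdkn1b, the gene of the inhibitor p27, had 159, 199.6 and 109 CPM in LER+LIG and 98.0, 98.4 and 77.4 CPM in NER, the LER+LIG libraries all higher (log2 fold change 0.77 ± 0.26, SE, n = 3 each). The D-type cyclin list was chosen after these values were seen, and its median over 10 tested members was -0.06. It holds Ccnd2, Ccnd1 and Cdkn1b. Genes of replication and mitosis did not separate: 15 of 25 were lower with a median of -0.15, which was -0.53 without LER+LIG 1, 0.22 without LER+LIG 2 and 0.13 without NER 2. Mki67, a marker of cycling cells, had 42.7, 15.5 and 71.4 CPM in LER+LIG and 62.8, 65.5 and 26.7 CPM in NER, and Rrm2, a subunit of the enzyme that hydroxyurea blocks, had 11.3, 3.34 and 32.0 CPM in LER+LIG and 19.8, 20.6 and 7.39 CPM in NER.

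The remaining lower genes of the 10 with the smallest p had no shared role. Adgrl1, an adhesion receptor, had 23.0, 34.1 and 46.6 CPM in LER+LIG and 77.7, 80.4 and 75.5 CPM in NER, a log2 fold change of -1.17 ± 0.27 (SE, n = 3 each; DESeq2 adjusted p 0.0449). Upk3b, a uroplakin also found in mesothelium, had 1.16, 1.97 and 1.86 CPM in LER+LIG and 6.98, 6.46 and 5.58 CPM in NER. The transcription factor gene Sox12 (-1.33), the neuronal pentraxin receptor gene Nptxr (-1.28) and the zinc finger gene Zcchc3 (-1.19) were each more than 1 lower on the log2 scale. AC115420.2 and AABR07043748.1, listed without a name or role, had fold changes of -2.24 and -1.27. LER lay level with or above NER for most of these genes. DESeq2 also called Selenon (-0.86), a selenoprotein of the endoplasmic reticulum, Mcc (-1.53), Arhgef33 (-2.59) and the leukotriene receptor gene Cysltr2 (-3.33), which were outside the rule for the 20 genes.

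Developmental signals were mostly lower: of 28 tested Hedgehog, Wnt and BMP genes 21 were lower, with a median of -0.42. LER+LIG lay wholly below NER for 4 of the 28, Gli2, Gli3, Wnt7b and Bmp7, beside 4.1% of all tested genes. Gli3, a transcription factor of the Hedgehog pathway, had 6.98, 16.5 and 14.5 CPM in LER+LIG and 29.0, 25.7 and 24.4 CPM in NER (log2 fold change -1.06 ± 0.36, SE, n = 3 each). Wnt7b had 38.3, 25.0 and 21.0 CPM in LER+LIG and 40.4, 103 and 39.2 CPM in NER, and its fold change of -1.11 was -0.50 without NER 2. Ihh, the ligand that progesterone induces in uterine epithelium, followed the library division rather than the groups, at 37.5, 5.38 and 1.24 CPM in LER+LIG and 30.6, 74.7 and 2.97 CPM in NER.

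Of the 22 tested attachment and receptivity genes, 16 were lower, with a median of -0.39. Lif was the only one whose groups did not overlap, a share near the 4.1% of all tested genes that were wholly lower. Itgb3, an integrin chain used as a receptivity marker, had 7.23, 12.4 and 50.8 CPM in LER+LIG and 40.8, 36.2 and 61.5 CPM in NER. Its partner Itgav had 25.0, 111 and 96.4 CPM in LER+LIG and 95.2, 80.8 and 142 CPM in NER, so that both integrins overlapped. Esr1, the oestrogen receptor gene, averaged 281 ± 109 CPM in LER+LIG and 297 ± 54.3 CPM in NER, and the progesterone receptor gene Pgr 137 ± 152 CPM in LER+LIG and 237 ± 169.7 CPM in NER (SD, n = 3 each). The spread within each group exceeded the difference between them for both receptors.

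Hbegf, a growth factor expressed at the site of attachment, had 3.07, 13.8 and 17.1 CPM in LER+LIG and 9.12, 4.25 and 17.0 CPM in NER, and Muc1, a mucin of the epithelial surface, 12.4, 102 and 37.8 CPM in LER+LIG and 11.1, 12.5 and 64.7 CPM in NER. NER 3 was the highest NER library for both. The vascular growth factor gene Vegfa had a fold change of -0.48 ± 0.36 and the homeobox gene Hoxa11 one of -0.70 ± 0.77 (SE, n = 3 each). Cdkn1a, a p53 target that halts the cell cycle, averaged 13.0 ± 5.62 CPM in LER+LIG and 29.4 ± 29.8 CPM in NER (SD, n = 3 each), with 8.29, 16.3 and 63.5 CPM in NER 1 to 3. NER 3 alone set its fold change of -1.17, which was 0.061 without that library.

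Genes tied to the drugs' known targets gave medians near that of all genes. Of 14 deoxynucleotide supply genes 8 were higher with a median of 0.06, of 18 p53 targets 10 with a median of 0.10, and of 19 adrenergic genes 7 with a median of -0.11. Shmt1, an enzyme that supplies carbon units for thymidylate, had 25.0, 48.3 and 34.8 CPM in LER+LIG and 23.4, 21.4 and 17.7 CPM in NER without overlap. Zmat3, a p53 target, had 3.41, 7.49 and 7.89 CPM in LER+LIG and 12.0, 13.4 and 16.2 CPM in NER and was lower without overlap, while Sesn1, another, was higher without overlap (0.83). Of the 18 p53 targets, 2 lay wholly higher in LER+LIG and 2 wholly lower, beside 4.17% and 4.1% of all tested genes. Oestrogen-responsive genes had 9 of 18 higher with a median of -0.05, and progesterone-responsive genes 8 of 22 with a median of -0.15. Kap, higher, and Ccnd1, lower, were the only oestrogen-responsive members whose groups did not overlap.

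**Figure D5:**
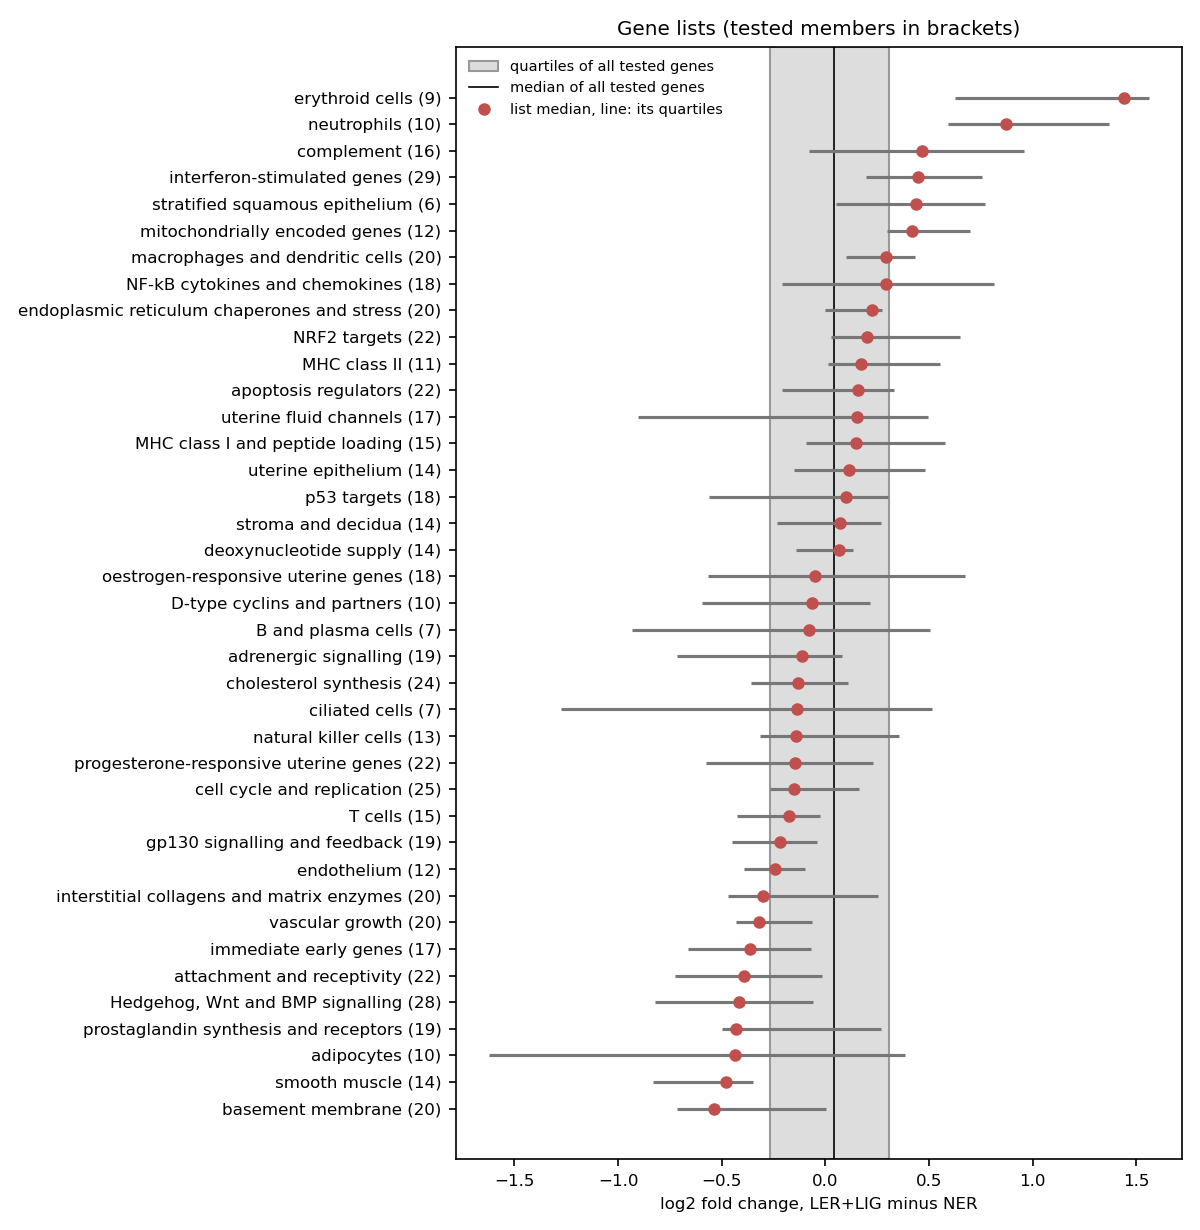
Median log2 fold change, LER+LIG minus NER, of each gene list with at least 5 tested members (points), with its quartiles (lines), beside the median of all tested genes (vertical line) and their quartiles (grey band). The lowest medians belong to the basement membrane (-0.54) and smooth muscle (-0.48) and the highest to erythroid cells (1.44) and neutrophils (0.87).

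The erythroid median rested on LER+LIG 1: the summed level of erythroid genes was 2648, 357 and 621 CPM in LER+LIG and 599.6, 216 and 593 CPM in NER, and the median was -0.13 without that library.

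RefSeq promoters, 250 bases before the start, were found for 13 of the 20 genes with the smallest p. Searched on both strands, the oestrogen response element (GGTCA, 3 bases, TGACC) was in 0 of the 13 and in 0.0187% of the promoters of tested genes, and the progesterone and glucocorticoid receptor element (GNACA, 3 bases, TGTNC) in 0 of 13 and 0.243%. The interferon element (GAAA, 2 bases, GAAA) was in 1 of 13, Rpp40, and in 2.62% of the promoters of tested genes. The AP-1 motif TGANTCA (4.59%), the NF-kB motif (GGGA, 1 base, TTTCC, 0.439%) and the STAT motif TTCNNNGAA (5.93%) were in 0 of 13. The 3 promoters printed above thus held none of the 6 in these exact spellings. Other spellings of the same sites were not searched, so their absence from these promoters was not shown.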

How the data were processed

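Poly-A selected endometrial RNA was sequenced in 9 libraries, 3 per group, with groups taken from the sample titles. The authors' deposited expression table holds whole-number read counts for each gene and library beside FPKM, per the file headers. FPKM were used only for levels per gene length and to recover gene lengths. The aligner, counter, strand setting and genome build were not given in the sources used here. Overlapping genes therefore cannot be told apart, and near-identical copies may share reads. The authors' table of comparisons holds other contrasts and was not used. The number of unused per-sample columns was 0.

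The fit used edgeR 4.0.16 in R 4.3.3 (filterByExpr, TMM, robust glmQLFit on all 9 libraries, glmQLFTest) and Benjamini-Hochberg adjustment over 14232 genes, with calls at an adjusted p under 0.05. DESeq2 1.42.0 was an alternative, and left 90 genes with no adjusted p. CPM are TMM-scaled, log2 CPM used a prior count of 2, and standard errors are the fold change over the root of the F statistic. The procedure was run on simulated data with known changes. Its rate of detection there is not given here, so a gene that was not called may still differ. Total counts limit precision only for low genes. All pairs of libraries compared differed by more than counting error (lowest chi-square over its degrees of freedom 17.9, over all pairs of the 9 libraries).

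Named genes were any called by edgeR, then the 10 per direction with the smallest p, a mean of at least 2 CPM and groups that did not overlap, 13 receptivity, hormone and cell cycle genes, up to 3 members per list with the smallest p, and the DESeq2 calls. Others were named after their values were seen. The members and lists were chosen with earlier results of these data known. Symbols matched 663 of 691 list entries, older symbols 4, and 24 had no match, and 4 further lists (71 of 74 entries matched) were chosen after seeing values. Names and promoters came from RefSeq, assembly GRCr8. Alternatives were other scalings, no filter, a fit of the 2 groups only, the replicate number as a block, a hormone covariate, an adjusted p under 0.10 and leaving out each library.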

Additional observations from a re-analysis of the deposited data

How the results depend on the processing

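No gene was called by edgeR under DESeq2 size factors, upper-quartile scaling, no filter, a fit of the 2 groups only, an adjusted p under 0.10 or any left-out library (lowest 0, highest 0). The hormone covariate, computed from these same libraries, gave 1 call and the DESeq2 Wald test 23. The causes of these differences were not tested. At an unadjusted p under 0.05, the fit of the 2 groups only gave 123 higher and 157 lower genes and the hormone covariate 854 and 1013. Leaving out 1 library gave 155 (without NER 2) to 752 (without LER+LIG 1) higher and 199 to 908 lower. Genes with groups that did not overlap numbered 844 to 1575 higher and 802 to 1686 lower when 1 library was left out, since fewer libraries then have to separate. Over the named genes and all alternatives, 1189 fold changes kept their direction and call, 24 gained a call (23 by DESeq2, and RT1-A1 with the covariate) and 18 changed sign. Other scalings moved the median of all genes by under 0.1.

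Whether the replicate numbers pair the libraries could not be settled with so few libraries. Deviations of LER+LIG and NER libraries sharing numbers 1, 2 and 3 correlated at 0.35, -0.19 and 0.51. Libraries with different numbers ranged from -0.55 (LER+LIG 1 and NER 3) to 0.54 (LER+LIG 1 and NER 2). The fit with the replicate number as a block called 0 genes, and moved the medians of p53 targets to -0.12 and D-type cyclins to -0.20. With the hormone covariate these were -0.14 and -0.34, fluid channels -0.29, gp130 genes -0.47, and Hbegf (-0.41), Mki67 (0.023) and Rrm2 (0.23) changed sign. Without a filter the adipocyte median was -1.39 and the squamous epithelium median -0.45.

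Fold changes that changed sign when 1 library was left out ranged from -0.43 to 0.13 for Esr1, -0.26 to 0.74 for Hbegf, -0.25 to 2.08 for Muc1, -0.83 to 0.12 for Mki67, -1.13 to 0.42 for Rrm2, -1.62 to 0.061 for Cdkn1a, -0.61 to 1.32 for RT1-Bb and -0.34 to 1.14 for RT1-Da. List medians that moved ranged from 0.012 to 1.09 for macrophages, -0.45 to 0.46 for T cells, -0.13 to 1.86 for erythroid cells, -0.36 to 1.70 for epithelium, -0.15 to 0.066 for stroma, -1.44 to 0.25 for ciliated cells and -0.34 to 1.26 for MHC class II. Other medians that changed sign ranged from -0.11 to 0.58 for MHC class I, -0.30 to 0.50 for endoplasmic reticulum genes, -0.33 to 0.29 for natural killer cells, -0.53 to 0.22 for the cell cycle, -0.21 to 0.18 for deoxynucleotide supply and -0.16 to 0.071 for oestrogen-responsive genes. Among signalling lists, the sign changed for NF-kB (-0.084 to 0.80), p53 (-0.14 to 0.052) and prostaglandin genes (-0.43 to 0.074). It held for attachment (-0.46 to -0.16), adrenergic (-0.38 to -0.11) and NRF2 genes (0.14 to 0.50). Fluid channels (-0.34 to 0.23), adipocytes (-0.91 to 0.18) and cholesterol synthesis (-0.41 to 0.37) changed sign too. So did B and plasma cells (-0.46 to 0.80) and squamous epithelium (-0.11 to 0.75). Medians kept their sign for the basement membrane (-0.71 to -0.28), gp130 genes (-0.42 to -0.091) and D-type cyclins (-0.41 to -0.073). With 3 libraries per group and libraries that stood apart within both groups, the spread was large for epithelial, hormone-responsive and leukocyte genes.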
